A study of Mus musculus with 11 samples.

Results

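The genes for cyclin-dependent kinase inhibitors were described over 6 sorted mouse populations. The members were 7 gene symbols, Cdkn1a, Cdkn1b, Cdkn1c, Cdkn2a, Cdkn2b, Cdkn2c and Cdkn2d, and a member counted as measured where a probe set was annotated to its symbol alone. Of the 7, 6 were measured, out of 19938 measured genes. Cdkn1a had no probe set of its own, because the probe set that lists it also lists 4930567H12Rik, and its level is not given. Cdkn1b had 2 probe sets, of which the one with the higher mean over all arrays was used, and the other 5 measured members had 1 each.

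RNA of C57BL/6J mice was hybridised to 11 Affymetrix arrays, 1 per sample. Marrow gave 2 arrays each of HSC (haematopoietic stem cells), of LMPP, which are lymphoid-primed multipotent progenitors, and of CLP, the common lymphoid progenitors. Thymus gave 2 arrays of ETP (early thymic precursors), 1 of DN2 and 2 of DN3, the later double negative stages; the tissue label and design text say thymus, although other labels of these samples name marrow. No mutation, transgene or agent is named for any group. Ages, sort gates and pooling of animals are not stated, nor whether replicates came from separate animals, so p-values cover only the spread between these arrays, which may be technical. All levels are log2 intensities after RMA (robust multi-array average, which corrects background, normalizes arrays to each other and summarises the probes of a set), so a difference of 1 is a 2-fold difference in intensity. Levels of different genes are not compared, because probe sets differ in brightness.

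The populations were checked against their markers. The array medians over all probe sets lay between 6.01 and 6.12. The highest mean fell in the labelled population for 3 of 5 measured HSC markers, 2 of 4 LMPP markers, 5 of 6 CLP markers, 0 of 5 ETP markers, 1 of 5 DN2 markers and 5 of 6 DN3 markers. The ETP markers Hes1, Gata3, Notch1 and Dtx1 were highest in DN3 and Kit in HSC, so that no marker of the list had its highest mean in ETP. Tcf7, a further ETP and DN2 marker, had no probe set of its own.

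Cyclin-dependent kinase inhibitors are proteins that stop the kinases which drive the cell division cycle. The Cip/Kip family (Cdkn1a, Cdkn1b, Cdkn1c) binds complexes of cyclins with several kinases, whereas the INK4 family (Cdkn2a, Cdkn2b, Cdkn2c, Cdkn2d) binds Cdk4 and Cdk6 and keeps them from the D-type cyclins, which holds the retinoblastoma protein in its active form. In blood formation Cdkn1b and Cdkn1c are known for their part in the quiescence of stem cells, Cdkn2c for limiting the self-renewal of stem cells and the division of thymocytes, and Cdkn2a for senescence.

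In the limma F test over the 6 populations 0 of the 6 members passed at adjusted p under 0.05, and 2, Cdkn1b and Cdkn1c, had an unadjusted p under 0.05. Of all 19938 genes 12.2% passed, and 23.3% had an unadjusted p under 0.05. Over the 15 pairs of populations, 90 comparisons of a member gave 1 call, Cdkn2c between DN3 and ETP, and 15 had an unadjusted p under 0.05. Over the same 15 pairs, 4.52% of the comparisons of all genes were called and 14.1% had an unadjusted p under 0.05, so the members' counts lay near the background. The population means of the members spanned a median of 0.62 from lowest to highest, against 0.34 over all genes. The SD between replicate arrays had a median of 0.192 over the members and 0.142 over all genes.

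**Figure D1:**
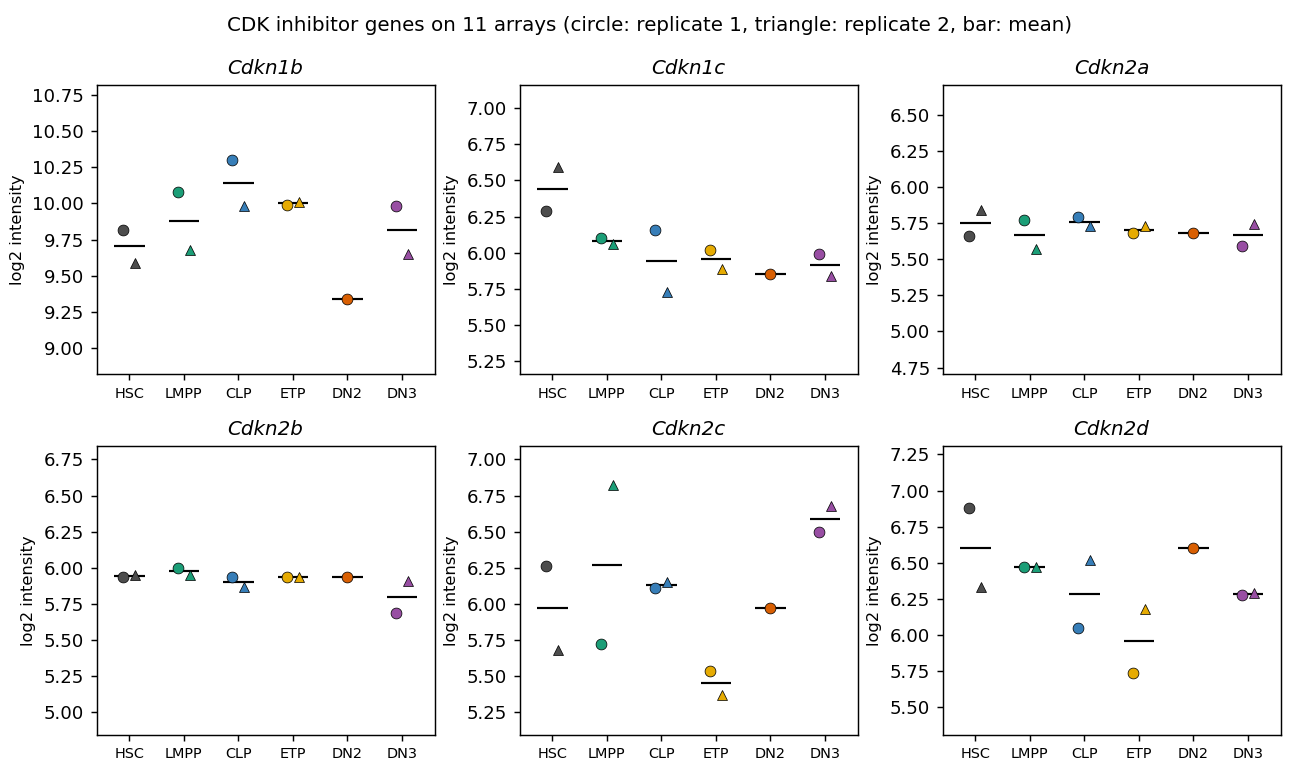
Log2 intensity (vertical axis, each panel spanning the same height) of the 6 measured members in the 6 populations; circles are replicate 1, triangles replicate 2 and bars the mean. Cdkn1c was highest on the HSC arrays, Cdkn2c lowest on the ETP arrays, and Cdkn2a and Cdkn2b stayed within 0.27 and 0.30 over all 11 arrays.

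Among the Cip/Kip genes, Cdkn1b encodes Kip1, an inhibitor that is controlled to a large part by protein breakdown. Its level was 9.82 and 9.59 in HSC, 10.08 and 9.68 in LMPP, 10.30 and 9.98 in CLP, 9.99 and 10.01 in ETP, 9.34 in DN2, and 9.98 and 9.65 in DN3. CLP replicate 1 was the highest array and the single DN2 array the lowest, below every other array. The means ran from CLP (10.14 ± 0.228, SD, n = 2) through ETP, LMPP, DN3 and HSC (9.71 ± 0.164) to DN2, and no neighbours in that order differed beyond their spread in the test. DN2 stood 0.66 below ETP (1.58-fold; 95% interval of the log2 difference -1.14 to -0.18; limma adjusted p = 0.373) and 0.80 below CLP (1.74-fold; interval -1.28 to -0.32; limma adjusted p = 0.0961), neither of which was called. Against LMPP the DN2 array was lower by 0.53 on the log2 scale (limma adjusted p = 0.295), and CLP stood 0.44 above HSC (limma adjusted p = 0.231). With 1 DN2 array, these differences have no replicate on the DN2 side.

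The dimmer Cdkn1b probe set gave a second reading of the same gene. It stood at 8.24 in DN2, again the lowest of the 11 arrays, with DN3 replicate 2 next at 8.38. Its highest array was HSC replicate 1 at 8.94, whereas HSC replicate 2 was at 8.42. By that probe set DN2 was 0.47 below ETP (interval -0.95 to 0.01; limma adjusted p = 0.713) and 0.60 below CLP (interval -1.08 to -0.12; limma adjusted p = 0.243). Both probe sets placed CLP highest and DN2 lowest by population mean. CLP stood 0.17 above HSC by the dimmer (interval -0.23 to 0.56; limma adjusted p = 0.740).

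**Figure D2:**
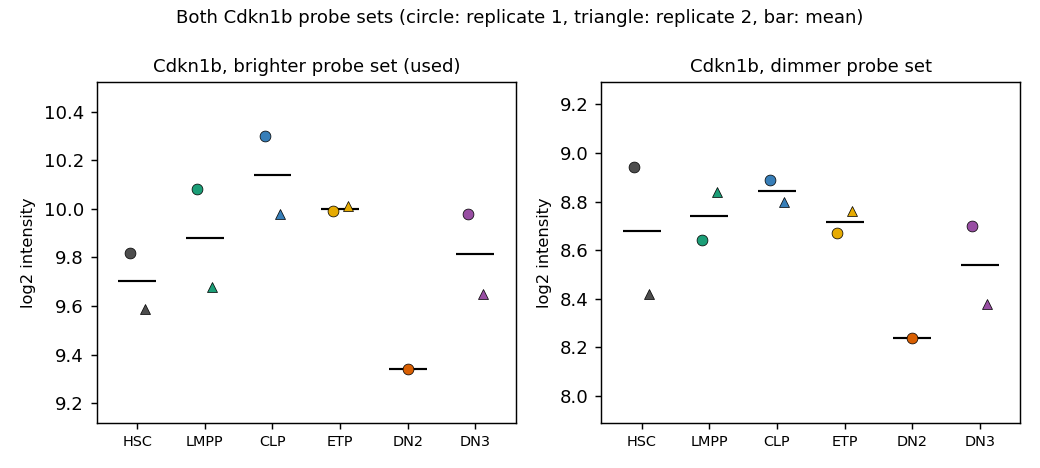
Log2 intensity of the brighter (left) and dimmer (right) Cdkn1b probe sets in the 6 populations; circles are replicate 1, triangles replicate 2 and bars the mean. The DN2 array was lowest in both, at 9.34 and 8.24.

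Cdkn1c encodes Kip2, an inhibitor made from an imprinted gene. Its level was 6.29 and 6.59 in HSC, 6.10 and 6.06 in LMPP, 6.16 and 5.73 in CLP, 6.02 and 5.89 in ETP, 5.85 in DN2, and 5.99 and 5.84 in DN3. Both HSC arrays lay above the other 9 arrays, as they did for 4.89% of all genes, and the other populations overlapped or lay within 0.23 of each other by their means. HSC averaged 6.44 ± 0.207 (SD, n = 2), and the other means were 6.08 in LMPP, 5.96 in ETP, 5.95 in CLP, 5.91 in DN3 and 5.85 in DN2. None of the 5 differences from HSC was called. LMPP was lower than HSC by 0.36 on the log2 scale, with a 95% interval of -0.71 to -0.01 (limma adjusted p = 0.356). The intervals were -0.85 to -0.14 for CLP (limma adjusted p = 0.119), -0.84 to -0.13 for ETP (0.136), -1.02 to -0.15 for DN2 (0.173) and -0.88 to -0.18 for DN3 (0.0676). DN3 against HSC was called without either CLP array (limma adjusted p = 0.0359), at the same difference of -0.53, and CLP against HSC without CLP replicate 1 (-0.71, limma adjusted p = 0.0435). Of all genes, 6.28% were called between CLP and HSC, 5.13% between ETP and HSC, 3.99% between DN2 and HSC and 9.60% between DN3 and HSC. Of 6 measured erythroid and megakaryocyte markers 3 fell from HSC to LMPP. Pf4 fell 43.2-fold, from 10.96 to 5.53, whereas Ppbp fell 1.74-fold from 5.06 and Itga2b 1.53-fold from 6.74. The intensities of the 6 markers summed to 2423 to 2471 in HSC and to 281 to 340 in the other populations. Pf4 was thus far the brightest of the 3 in HSC, and the part of the markers in the Cdkn1c values was not tested.

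Among the INK4 genes, Cdkn2c encodes an inhibitor of Cdk4 and Cdk6, and it was the only member with a call. RefSeq lists a pair of starts for it, and the 250 bases before each, on the minus strand of GRCm38.p6, are shown because this gene carried the only difference that passed; capitals mark GC boxes. The stretch before the upstream start is chr4:109666757-109667006 and that before the downstream start chr4:109665373-109665622, and the last base of each borders the start.
Cdkn2c upstream start: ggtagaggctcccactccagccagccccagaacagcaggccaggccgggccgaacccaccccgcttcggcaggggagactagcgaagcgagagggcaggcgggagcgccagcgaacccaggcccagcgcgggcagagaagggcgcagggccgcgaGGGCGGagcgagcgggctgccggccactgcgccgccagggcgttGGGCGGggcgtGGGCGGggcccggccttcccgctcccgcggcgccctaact
Cdkn2c downstream start: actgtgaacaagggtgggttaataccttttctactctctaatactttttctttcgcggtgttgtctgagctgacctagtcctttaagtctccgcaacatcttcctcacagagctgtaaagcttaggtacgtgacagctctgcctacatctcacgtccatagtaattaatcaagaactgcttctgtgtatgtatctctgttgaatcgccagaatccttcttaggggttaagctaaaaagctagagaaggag
The first stretch was 77.2% G and C with 29 CpG pairs, and the second 42.8% with 6, against medians of 52.4% and 6 over 32851 such stretches of RefSeq mouse genes. GC boxes (GGGCGG, either strand) stood 95, 51 and 40 bases before the upstream start, and 0 stood before the downstream one; 32.7% of all stretches hold at least 1. No match was found in either stretch for CCAAT (present in 33.8% of all), for the E-box CACGTG (6.02%), for GTGGGAA, a form of the site of the Notch partner RBPJ (5.42%), or for the E2F forms TTTCCCGC, TTTGGCGC, TTTCGCGC and TTTGCCGC (1.86% for any of them), on either strand. The arrays do not tell the transcripts of the separate starts apart.

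The level of Cdkn2c was 6.26 and 5.68 in HSC, 5.72 and 6.82 in LMPP, 6.11 and 6.15 in CLP, 5.54 and 5.37 in ETP, 5.97 in DN2, and 6.50 and 6.68 in DN3. Both ETP arrays lay below the other 9, as for 1.90% of all genes. The LMPP arrays held the highest value of all on replicate 2 and a low one on replicate 1, a gap of 1.10, the largest between replicates of any member. DN3 averaged 6.59 ± 0.127 and ETP 5.46 ± 0.119 (SD, n = 2 each). Cdkn2c was 2.20-fold higher in DN3 than in ETP (95% interval 1.39 to 3.46-fold; limma adjusted p = 0.0478), so that 1 of 6 members was called there. Of all genes 6.57% were called in this comparison and 2.68% were higher in DN3.

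That call lay at the threshold. The log2 difference was 1.14, and it stayed between 1.05 and 1.22 under 22 alternatives, with DN3 higher in all 22. In 2 of them, the dimmer Cdkn1b probe set and leaving out the DN2 array, the p of this gene could not change. Of the other 20 the call held in 10 and was lost in 10. The call held in a fit of DN3 and ETP alone (limma adjusted p = 0.00522) and with array weights (0.0104). At the threshold of 0.01 the call was lost with the adjusted p unchanged at 0.0478. The call was lost with the replicate number as a block (limma adjusted p = 0.0613). It was lost without DN3 replicate 1 (limma adjusted p = 0.157), DN3 replicate 2 (0.287), ETP replicate 1 (0.164) or ETP replicate 2 (0.224), and also without either CLP array (0.0688), which are not part of the comparison but of the shared spread. It was lost as well when arrays were centred on their medians (0.0702) or quantiles were normalized once more (0.0689). Without either LMPP array, whose SD of 0.777 was the largest of any population for this gene, limma gave an adjusted p of 0.00455.

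**Figure D3:**
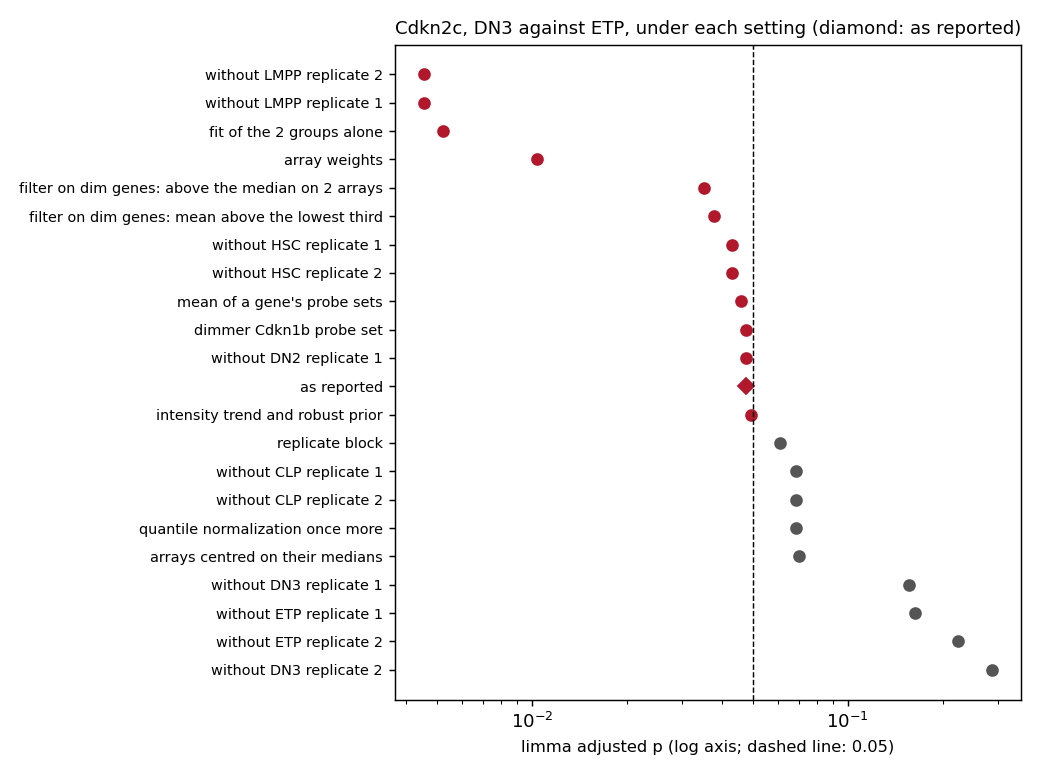
Adjusted p of Cdkn2c between DN3 and ETP (horizontal axis, logarithmic) under each alternative listed on the vertical axis, with the reported value as a diamond and the threshold as a dashed line. Points run from 0.00455 without an LMPP array to 0.287 without DN3 replicate 2.

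The other differences of Cdkn2c were not called. ETP stood 0.81 below LMPP (1.76-fold; interval -1.47 to -0.16; limma adjusted p = 0.243), a difference of -1.36 without LMPP replicate 1 (limma adjusted p = 0.0200) and of -0.26 without LMPP replicate 2. ETP stood 0.68 below CLP (interval -1.33 to -0.02; limma adjusted p = 0.421). From ETP to DN2 the value was 0.51 higher (interval -0.29 to 1.32; limma adjusted p = 1) and from DN2 to DN3 0.62 higher (interval -0.18 to 1.43; limma adjusted p = 0.873). In order of means the populations were DN3, LMPP, CLP, HSC and DN2 (5.97 each), and ETP, and no neighbours differed beyond their spread in the test. The F test of Cdkn2c gave an adjusted p of 0.220, and limma gave 0.0143 without LMPP replicate 1 and 0.0311 without LMPP replicate 2.

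Other values moved between ETP and DN3 with Cdkn2c. The intensities of 22 S phase genes summed to 16253 to 18159 in ETP, to 21360 on the DN2 array and to 20671 to 20820 in DN3. Macrophage and neutrophil markers summed to 1082 to 1347 in ETP and 752 to 755 in DN3, with 2 of 13 lower in DN3, namely Csf1r and S100a8. S100a8 fell 3.92-fold, from 8.28 to 6.30, and the median log2 difference of the 13 was -0.07. Markers of mature T, B and natural killer cells summed to 1758 to 2072 in ETP and 1000 to 1060 in DN3. Of these 10, 1, Nkg7, was lower (2.88-fold, from 10.43 to 8.90) and 1, Cd8b1, higher (1.91-fold). The median log2 difference of the 10 was -0.13. Of 10 stromal, epithelial and endothelial markers 1, Epcam, was higher in DN3, and the sums were 956 to 980 and 1010 to 1041. Their part in the Cdkn2c difference was not tested, and in bulk samples fewer cells with a transcript and less of it per cell cannot be told apart.

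Cdkn2d encodes another INK4 inhibitor of Cdk4 and Cdk6. Its level was 6.88 and 6.33 in HSC, 6.47 on both LMPP arrays, 6.05 and 6.52 in CLP, 5.74 and 6.18 in ETP, 6.60 in DN2, and 6.28 and 6.29 in DN3. ETP replicate 1 was the lowest array and HSC replicate 1 the highest. ETP had the lowest mean (5.96 ± 0.311, SD, n = 2), as it did for Cdkn2c, but CLP replicate 1 lay below ETP replicate 2. ETP stood 0.65 below HSC (1.57-fold; interval -1.12 to -0.18; limma adjusted p = 0.131), a difference that was called without HSC replicate 2 (-0.93, limma adjusted p = 0.0469). ETP stood 0.51 below LMPP (interval -0.98 to -0.04; limma adjusted p = 0.318), and the DN2 array 0.64 above ETP (interval 0.06 to 1.21; limma adjusted p = 0.574). In order of means the populations were HSC (6.61), DN2 (6.60), LMPP (6.47), DN3 (6.29), CLP (6.28) and ETP, and no neighbours differed beyond their spread in the test.

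Cdkn2a and Cdkn2b are neighbouring genes that are kept silent by Polycomb proteins in many young tissues. Cdkn2a encodes both an INK4 inhibitor and ARF, a protein that stabilises p53, and its probe set is annotated to transcripts of both, which it cannot tell apart. Over the 11 arrays its level ran from 5.57 in LMPP replicate 2 to 5.84 in HSC replicate 2. The population means lay between 5.66 in DN3 and 5.76 in CLP, a span of 0.09 that was smaller than the SD between replicates of 0.101. The widest limits of the 15 intervals were -0.41 and 0.36.

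Cdkn2b encodes an INK4 inhibitor known as a target of transforming growth factor beta. Its level ran from 5.69 in DN3 replicate 1 to 6.00 in LMPP replicate 1, and its population means from 5.80 ± 0.152 in DN3 to 5.97 ± 0.0334 in LMPP (SD, n = 2 each). Both LMPP arrays lay above the other 9, as for 3.63% of all genes, although LMPP replicate 2 and HSC replicate 2 were both 5.95 to 2 decimals. The value 5.94 was repeated to the last deposited digit on 5 arrays, HSC replicate 1, CLP replicate 1, both ETP arrays and DN2. Of 19938 genes, 204 had a value repeated on 5 or more arrays. The SD was 0 in ETP, and the SD between replicates pooled over the populations was 0.0723. The smallest limma adjusted p over the 15 pairs was 0.432. No detection calls are given, so whether Cdkn2a or Cdkn2b transcripts were above background is not known. The same holds for Cdkn2c, at 5.54 and 5.37 on the ETP arrays, and for Cdkn1c, with a mean of 6.05 over the 11 arrays. Where a level lies near background, the fold in intensity need not equal the fold in transcript.

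By step of the path, the members called numbered 0 of 6 between LMPP and HSC (2.94% of all genes called), CLP and LMPP (1.14%), ETP and LMPP (2.31%), ETP and CLP (2.52%), DN2 and ETP (0.998%) and DN3 and DN2 (1.80%), by limma. At an unadjusted p under 0.05 those steps held 1, 0, 2, 1, 2 and 0 members, against 13.6%, 8.50%, 13.4%, 11.4%, 7.19% and 8.17% of all genes. Between DN3 and ETP 1 member and 15.9% of all genes had an unadjusted p under 0.05. The median log2 difference of the members was between -0.10 and 0.02 over the 7 steps, and that of all genes between -0.03 and 0.03. The members were not of 1 sign at any step, with 2 or 3 of 6 positive each time. Between DN2 and ETP their median size of change was 0.31 against 0.11 over all genes, with Cdkn1b at -0.66, Cdkn2d at 0.64 and Cdkn2c at 0.51, and that step rests on a single DN2 array. Among the pairs outside these steps, 2.76% of genes were called between DN2 and CLP and 3.06% between DN2 and LMPP, and no member.

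**Figure D4:**
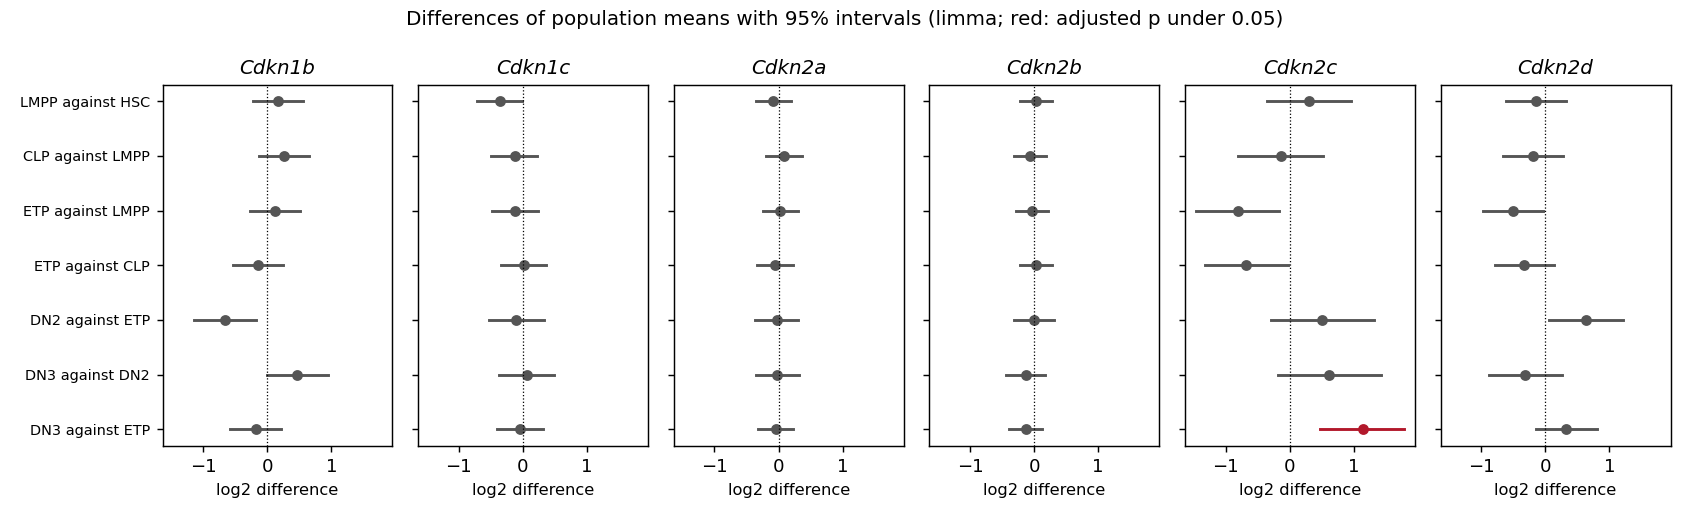
Difference of population means on the log2 scale (horizontal axis) with its 95% interval from limma, for each of 7 steps (vertical axis) and each member (panels); red marks an adjusted p under 0.05. Only Cdkn2c between DN3 and ETP is red, at 1.14, and the intervals of Cdkn2a and Cdkn2b are the narrowest.

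Of the partners of the inhibitors, 4 cyclins were called at some step. The list held 12 genes of G1 and S phase, namely kinases, cyclins and a phosphatase. Of these 12, 0 were called between LMPP and HSC, CLP and LMPP, ETP and LMPP, ETP and CLP, or DN3 and DN2, with 0 to 4 at an unadjusted p under 0.05 in limma. At such a p there were 2 between DN2 and ETP (7.19% of all genes) and 6 between DN3 and ETP (15.9%). The shares of all genes called at these steps were 0.998% and 6.57%. Ccnd1, a D-type cyclin that INK4 proteins keep from Cdk4 and Cdk6, stood at 7.27 on both ETP arrays, at 5.98 in DN2 and at 6.23 and 6.44 in DN3. It fell 2.45-fold from ETP to DN2 (limma adjusted p = 0.0205) and was 1.91-fold lower in DN3 than in ETP (limma adjusted p = 0.00900). The other D-type cyclins were not called and did not fall from ETP to DN3. Ccnd2 stood at 9.95 and 9.99 in ETP and at 9.98 and 10.03 in DN3. Ccnd3 stood at 7.08 and 7.26 in ETP and at 7.49 and 7.58 in DN3. Both E-type cyclins and Ccna2, the S phase cyclin, were higher in DN3 than in ETP. The rise was 1.44-fold for Ccne1 (limma adjusted p = 0.0334), 1.42-fold for Ccne2 (0.0245) and 1.48-fold for Ccna2 (0.0388). The 3 were not called without DN3 replicate 1 or DN3 replicate 2. Ccne2 and Ccna2 were not called without ETP replicate 1, Ccne1 without ETP replicate 2, and Ccna2 without either CLP array, and Ccnd1 between DN3 and ETP was not called without DN3 replicate 1 or either ETP array. Between DN2 and ETP Ccnd1 was not called without either ETP array. Ccne1 was also not called with quantiles normalized once more (limma adjusted p = 0.0518) or with an intensity trend and robust prior (0.0661). In a fit of DN3 and ETP alone the adjusted p was 0.0622 for Ccne1, 0.0580 for Ccne2 and 0.0672 for Ccna2. Cdk4 and Cdk6, the kinases that INK4 proteins bind, were called at none of the 7 steps, with levels of 10.56 to 11.08 and 9.94 to 10.82 over the 11 arrays.

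**Figure D5:**
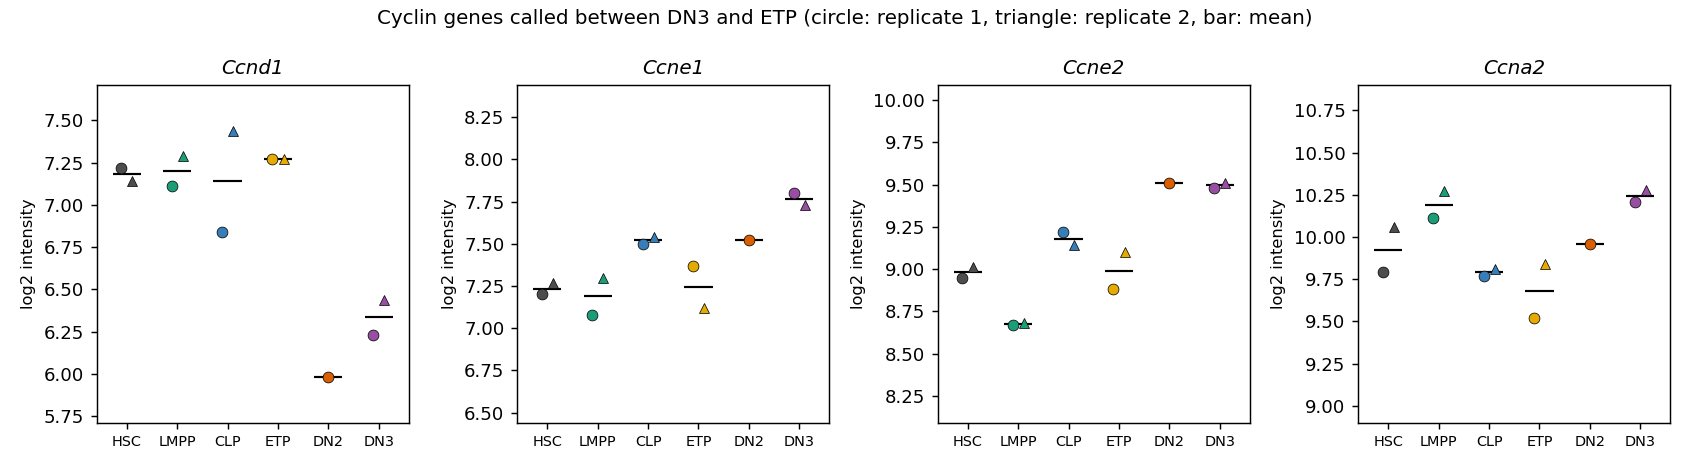
Log2 intensity (vertical axis, each panel spanning the same height) of the 4 cyclin genes called between DN3 and ETP, in the 6 populations; circles are replicate 1, triangles replicate 2 and bars the mean. Ccnd1 stood at 5.98 in DN2 and at 6.23 and 6.44 in DN3, below every other array, while Ccne1, Ccne2 and Ccna2 were higher in DN3 than in ETP.

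Of 15 genes of the retinoblastoma family, the E2F factors and their partners, 0 were called at any of the 7 steps, with 1 to 4 at an unadjusted p under 0.05 in limma. Between DN3 and ETP 1 was called under 6 settings: either filter on dim genes, quantiles normalized once more, centred medians, the intensity trend and array weights. Of 13 genes of ubiquitin ligases that act on the inhibitors or, as Fbxw7 does, on cyclin E, 0 were called at any step as well. At an unadjusted p under 0.05 there were 1 to 3. That count was not stable: with array weights 2 were higher in DN3 than in ETP, 1 in DN3 than in DN2 and 1 in ETP than in LMPP, and leaving out 1 array gave up to 2 between DN3 and ETP and up to 1 between DN3 and DN2 and between LMPP and HSC. Fbxw7, the substrate receptor that marks cyclin E for breakdown, was the 1 gene of the list to pass the F test. It stood at 8.65 in DN2 and at 9.66 and 9.59 in DN3, which was 1.97-fold higher (limma adjusted p = 0.0901). Skp2, which marks Kip1 for breakdown, stood at 7.92 in DN2, at 7.53 and 7.52 in ETP and at 8.01 and 7.95 in DN3, and DN2 was 0.40 above ETP (limma adjusted p = 0.510). Of 16 measured genes of the p53 pathway, Trp53inp1, a p53-induced gene, rose 2.86-fold from LMPP to CLP (limma adjusted p = 0.00092) and stood 3.50-fold above LMPP in ETP (limma adjusted p = 0.000167), and both calls held without any 1 array. Phlda3, another p53 target, was 1.74-fold lower in ETP than in CLP (limma adjusted p = 0.0266), and Sesn1, a stress-induced p53 target, 1.58-fold lower in DN3 than in ETP (0.0131). Phlda3 was not called without any 1 of the CLP and ETP arrays, nor Sesn1 without DN3 replicate 1 or either ETP array. Phlda3 was also not called in a fit of ETP and CLP alone (limma adjusted p = 0.0724). Trp53 itself and Bax had no probe set of their own.

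Of 23 genes known to act upstream of the inhibitor genes, 1 fell from HSC to LMPP (Gfi1b, 1.86-fold, limma adjusted p = 0.0134) and 1 rose from LMPP to CLP (Foxo1, 1.52-fold, 0.0322). Between ETP and LMPP 2 were higher, Hes1 and Mycn, and 1 lower, Egr1. Mycn was not called there without either ETP array or LMPP replicate 1, nor Egr1 without either ETP array or LMPP replicate 2. Between ETP and CLP 2 were higher and 1 lower. Hes1, a Notch target that represses inhibitor genes, was 3.00-fold higher in ETP than in CLP (limma adjusted p = 4.57e-05). Mycn, a factor of the Myc family whose members repress inhibitor genes, was 2.07-fold higher in ETP (limma adjusted p = 0.00267), and Foxo1, a factor that activates Cdkn1b, 1.81-fold lower (limma adjusted p = 0.00197). Between DN3 and ETP 1 was higher and 1 lower. Tgfbr1, a receptor chain for transforming growth factor beta, was 1.82-fold higher in DN3 (limma adjusted p = 0.00328), whereas Mycn was 1.84-fold lower (limma adjusted p = 0.00333; 0.0532 without DN3 replicate 2). Mycn was also lower in DN3 than in DN2 (1.81-fold, limma adjusted p = 0.0385), and 0 of the list were called between DN2 and ETP, with 1 at an unadjusted p under 0.05. Without any 1 of 6 arrays, those of CLP, ETP and DN3, Mycn was not called between DN3 and DN2. Gfi1b was not called without HSC replicate 1 or either LMPP array, and Foxo1 between CLP and LMPP was not called without any 1 of the CLP, LMPP, ETP and DN3 arrays. Mycn between DN3 and DN2 was also not called with centred medians (limma adjusted p = 0.0701) or an intensity trend (0.0540), nor Foxo1 between CLP and LMPP with array weights (0.0531) or an intensity trend (0.0519). In fits of the 2 groups alone Gfi1b (limma adjusted p = 0.126) and Foxo1 between CLP and LMPP (0.173) were not called. Nor were Mycn (0.106) and Egr1 (0.0651) between ETP and LMPP. Cdkn2b, a target of transforming growth factor beta, was at 5.80 in DN3 and 5.94 in ETP (limma adjusted p = 0.730).

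Of 24 G2 and M phase genes 4 rose from HSC to LMPP by limma, Kif23, Cenpf, Prc1 and Nusap1 (1 to 4 when any 1 array was left out). From LMPP to CLP 2 fell, Ttk and Cenpf (0 to 2), and 5 were lower in ETP than in LMPP, Cenpf, Cdkn3, Mki67, Ccnb2 and Ttk (1 to 5). These 3 counts moved with the scaling: they were 10, 5 and 12 with quantiles normalized once more, and 1, 0 and 3 with arrays centred on their medians, in the same directions. With array weights they were 1, 1 and 5. In fits of the 2 groups alone none of the calls named above held. The limma adjusted p ran from 0.0575 for Kif23 to 0.212 for Prc1, both between LMPP and HSC. Of all genes 2.94% were called between LMPP and HSC, 1.14% between CLP and LMPP and 2.31% between ETP and LMPP. At an unadjusted p under 0.05 in limma these comparisons held 16, 15 and 16 of the 24. Of all genes 13.6%, 8.50% and 13.4% had such a p. The median log2 differences of the 24 were 0.43, -0.37 and -0.46. The summed intensity of the 24 genes was 16229 to 18540 in HSC, 22346 to 24916 in LMPP and 15775 to 17908 in ETP. Cdkn3, a phosphatase of that list which carries an inhibitor name but belongs to neither family, was 1.85-fold lower in ETP than in LMPP (limma adjusted p = 0.0130), and was not called without ETP replicate 1 or either LMPP array. Of 22 S phase genes 2, Rrm2 and Tyms, were higher in DN3 than in ETP (1 to 2 when any 1 array was left out), and 10 had an unadjusted p under 0.05. Of all genes 6.57% were called there and 15.9% had an unadjusted p under 0.05 in limma. Rrm2, a subunit of ribonucleotide reductase, was 1.79-fold higher in DN3 (limma adjusted p = 0.00115) and stayed called without any 1 array, and Tyms was not called without any 1 of the DN3 and ETP arrays. Rrm2 also stood 1.78-fold higher on the single DN2 array than in ETP (limma adjusted p = 0.0229), a call lost without either ETP array. Because no member passed the F test, no genes were matched to a member by the likeness of their pattern.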

How the data were processed

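RNA of 6 sorted mouse populations was measured on 11 arrays. The authors deposited log2 intensities made by RMA, per the submitters' processing notes, with values from 2.07 to 13.77; RMA's version, the chip definition and the build are each not given in the sources used here. Of 35556 probe sets 21789 had 1 gene symbol in the annotation and were used, 1621 had several and 12146 none. The brightest probe set by mean stood for each of 19938 genes.

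One limma 3.58.1 fit (R 4.3.3) on all arrays, with a mean for each of 6 populations and 5 residual degrees of freedom, gave an F test and 15 pairwise contrasts, two-sided, adjusted by Benjamini-Hochberg over all genes and called at adjusted p under 0.05; DN2, with 1 array, was assumed to vary like the rest. Intervals are 95% and unadjusted. Tables were handled with pandas 2.3.3 in Python 3.11.15, figures drawn with matplotlib 3.10.9, and the fit was tested on simulated data. Members, gene lists and tests were chosen with earlier results of these data known. Named genes are all members and called list members (up to 4 per step). Where none was called, the rule names the gene that moved most, of which Skp2 and Fbxw7 are given. It adds, for each member passing the F test, the 3 genes most like it. Cdk4, Cdk6, Ccnd2 and Ccnd3 were singled out after their values were seen. So was the list of 5 lower in ETP than in LMPP, given in full. The dimmer Cdkn1b probe set was an alternative added after the data were seen, and the other alternatives are given in the closing section. Promoter sequences are RefSeq's (GRCm38.p6), matched by symbol for 6 of 7 members, Cdkn1c being the exception.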

Additional observations from a re-analysis of the deposited data

How the results depend on the processing

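Of the 15 member differences with an unadjusted p under 0.05, 0 changed direction under any alternative run. At adjusted p under 0.01, with arrays centred on their medians and with quantiles normalized once more, 0 members were called between DN3 and ETP and 0 over the 15 pairs. With the replicate number as a block the members called between DN3 and ETP were 0 and those in the F test 1 (Cdkn1b, adjusted p = 0.0448), and Cdkn1b was also called between DN2 and CLP (adjusted p = 0.0206). Under the block 4 gene list calls were lost, Ccne1 between DN3 and ETP (0.0507), Mycn between DN3 and DN2 (0.0695), Nusap1 between LMPP and HSC (0.0577) and Ttk between ETP and LMPP (0.0671). The labels do not say that a number marks a shared animal or day. The correlation of same-numbered arrays' deviations ran from -0.258 to 0.283 over 10 pairs of populations. It was negative in each pair with HSC (-0.258 to -0.0876) and positive in each other pair (0.0703 to 0.283). Whether same-numbered arrays share an animal or day is not decided by these values, which differ in sign.

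When any 1 array was left out, the members called were 0 to 1 in the F test, 0 to 1 between DN3 and ETP, 0 to 1 between ETP and LMPP and 0 to 2 over the 15 pairs. The count of all genes called then ran from 1499 to 2572 in the F test (2430 as reported), 310 to 622 for LMPP against HSC (586), 98 to 257 for CLP against LMPP (228), 228 to 521 for ETP against LMPP (460), 248 to 543 for ETP against CLP (502), 92 to 200 for DN2 against ETP (199), 181 to 385 for DN3 against DN2 (358) and 695 to 1426 for DN3 against ETP (1310). At adjusted p under 0.01 these counts were 1378, 280, 104, 213, 230, 96, 191 and 781 in that order. Fits of the 2 groups alone gave 137, 67, 195 and 231 for LMPP against HSC, CLP against LMPP, ETP against LMPP and ETP against CLP, and array weights gave 2030 for DN3 against ETP. The causes were not tested. The filter that kept 11029 genes above the median on 2 arrays dropped Cdkn2a and Cdkn2b. No detection calls were used, so a low level bounds no transcript ratio.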
